A study of Homo sapiens with 10 samples.

Results

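The transcripts of the translation initiation and elongation factors were examined in HEK293FT cells, a fast-growing line derived from the human embryonic kidney line HEK293. Members were all features of the expression table named EIF1 to EIF6 or EEF1 and EEF2, without the EIF2AK kinases: 64 of 19301 named features. Of these, 61 had a mean of at least 1 FPKM (fragments per kilobase of transcript, scaled to the fragments mapped in the library) over the 10 libraries and were tested together with all 11574 features that passed this minimum. The untested members were EIF4E1B, the pseudogene EIF3IP1 and the Y-linked EIF1AY. By role, 7 features were elongation factors, 40 were initiation factors (38 tested) and 17 belonged to neither class (16 tested). The class of neither holds regulators, eIF5A, eIF6, the exon junction helicase EIF4A3, and 4 Argonaute genes that carry the older symbols EIF2C1 to EIF2C4 and match by name alone.

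All cells carried Gaussia and Cypridina luciferase reporters placed by lentivirus, and all received dCas9-VP64, a Cas9 without cutting activity joined to a transcriptional activator. The control group, CasVP, got no guide RNA, and the other groups got a guide plasmid labelled sgRNA, INT, P4P6 or TOP1, each guide directed to the Gaussia reporter. What sets INT, P4P6 and TOP1 apart is not stated in the labels, and the label TOP1 here stands for a guide, not for the topoisomerase gene. Polyadenylated RNA was taken 3 days after a transient transfection, with 2 libraries a group. The labels do not say whether these were separate cultures, so a p-value measures the spread between these libraries, which may be technical. In these bulk samples, fewer cells of a type and less RNA per cell cannot be told apart.

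Protein synthesis begins when initiation factors bring the initiator tRNA, the small ribosomal subunit and a capped mRNA together: eIF2 carries the tRNA, eIF3 bridges subunit and mRNA, eIF4F binds the cap and unwinds the leader, and eIF1, eIF1A and eIF5 govern the choice of start codon. Elongation factors then serve every codon: eEF1A delivers aminoacyl-tRNA, the eEF1B complex reloads eEF1A with GTP, and eEF2 moves the ribosome along. Many mRNAs of the translation apparatus begin with a C and a run of pyrimidines, the terminal oligopyrimidine tract, through which growth signalling regulates their translation. HEK293 derivatives grow fast and make much protein, and these mRNAs are abundant in such cells.

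The starts of the transcripts are shown for members on which the results turn. The first 8 have the tract and the last 3 do not. Both kinds hold members that differed between P4P6 and sgRNA. Among the first 8, EEF2 and EIF3F passed no test in the main fit. Sequences are from RefSeq (GRCh38.p14), 5′ to 3′ on the gene's strand, with 10 bases before the annotated start and 20 from it, and capitals mark the unbroken run of C and T that opens at a C on the start. For a gene with several annotated starts 1 is shown. For EEF1B2 it is the start with the longest such run, and for EIF4G1 the first by coordinate.
EEF1A1, chr6:73521013-73521042, minus strand: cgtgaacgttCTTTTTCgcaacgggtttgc
EEF2, chr19:3985444-3985473, minus strand: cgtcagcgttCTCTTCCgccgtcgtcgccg
EEF1B2, chr2:206159885-206159914, plus strand: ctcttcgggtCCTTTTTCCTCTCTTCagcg
EIF3M, chr11:32583821-32583850, plus strand: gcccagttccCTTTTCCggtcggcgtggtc
EIF3K, chr19:38619178-38619207, plus strand: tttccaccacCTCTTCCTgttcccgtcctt
EIF3F, chr11:7987327-7987356, plus strand: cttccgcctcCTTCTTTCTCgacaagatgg
EIF2A, chr3:150546777-150546806, plus strand: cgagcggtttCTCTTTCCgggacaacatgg
EIF4A2, chr3:186783567-186783596, plus strand: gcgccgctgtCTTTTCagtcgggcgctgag
EEF1G, chr11:62573872-62573901, minus strand: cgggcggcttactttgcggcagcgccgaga
EIF1AX, chrX:20141819-20141848, minus strand: gagtcgcggcgccatttgctgccgccgagc
EIF4G1, chr3:184314596-184314625, plus strand: gcggggagccggaaatggttgtggactacg

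The pattern searched was a C at the annotated start followed directly by at least 4 bases that are C or T, on the gene's strand only. It was found in 4.07% of 35116 RefSeq windows, and 5.14% of 27305 genes had it in at least 1 window. Among the tested members with a window it was found in 11 of 50 features: 3 of 5 elongation factors (EEF1A1, EEF2, EEF1B2), 8 of 32 initiation factors (EIF3D, EIF3F, EIF3K, EIF3M, EIF2A, EIF2S3, EIF4A2, EIF4B) and 0 of 13 features of neither class. EEF1G and the joint feature of EIF3C each enter these counts as a pair of features with the same window, without the pattern. Genes with several windows had more chances to match, and a match is a description of letters, not evidence of a site in use. EEF1A1 opens with CTTTTTC and EEF2 with CTCTTCC, and the longest run among the members shown is the 16-base run of EEF1B2.

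The 4 most abundant features of the set were elongation factors. The joint feature of EEF1A1 and EEF1A2 had a mean of 5809 FPKM over the 10 libraries, EEF1G 1502, EEF2 1278 and EEF1B2 934. The ranges over libraries of these 4 did not overlap: EEF1G spanned 1353 to 1621 FPKM, EEF2 1221 to 1350, and EEF1B2 763 to 1046. EIF1, the first initiation factor in the order, followed with 663 FPKM, and then EIF3E with 532, the joint feature of EIF4A1 and SENP3 with 452 and EIF3L with 408. Further down, EIF4EBP1 (240 to 306 FPKM), EIF4G2 (252 to 288) and EIF4B (233 to 299) overlapped in range and cannot be put in order. The median feature level was 934 FPKM for elongation factors and 104.5 FPKM for initiation factors, against 14.4 for all tested features.

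**Figure D1:**
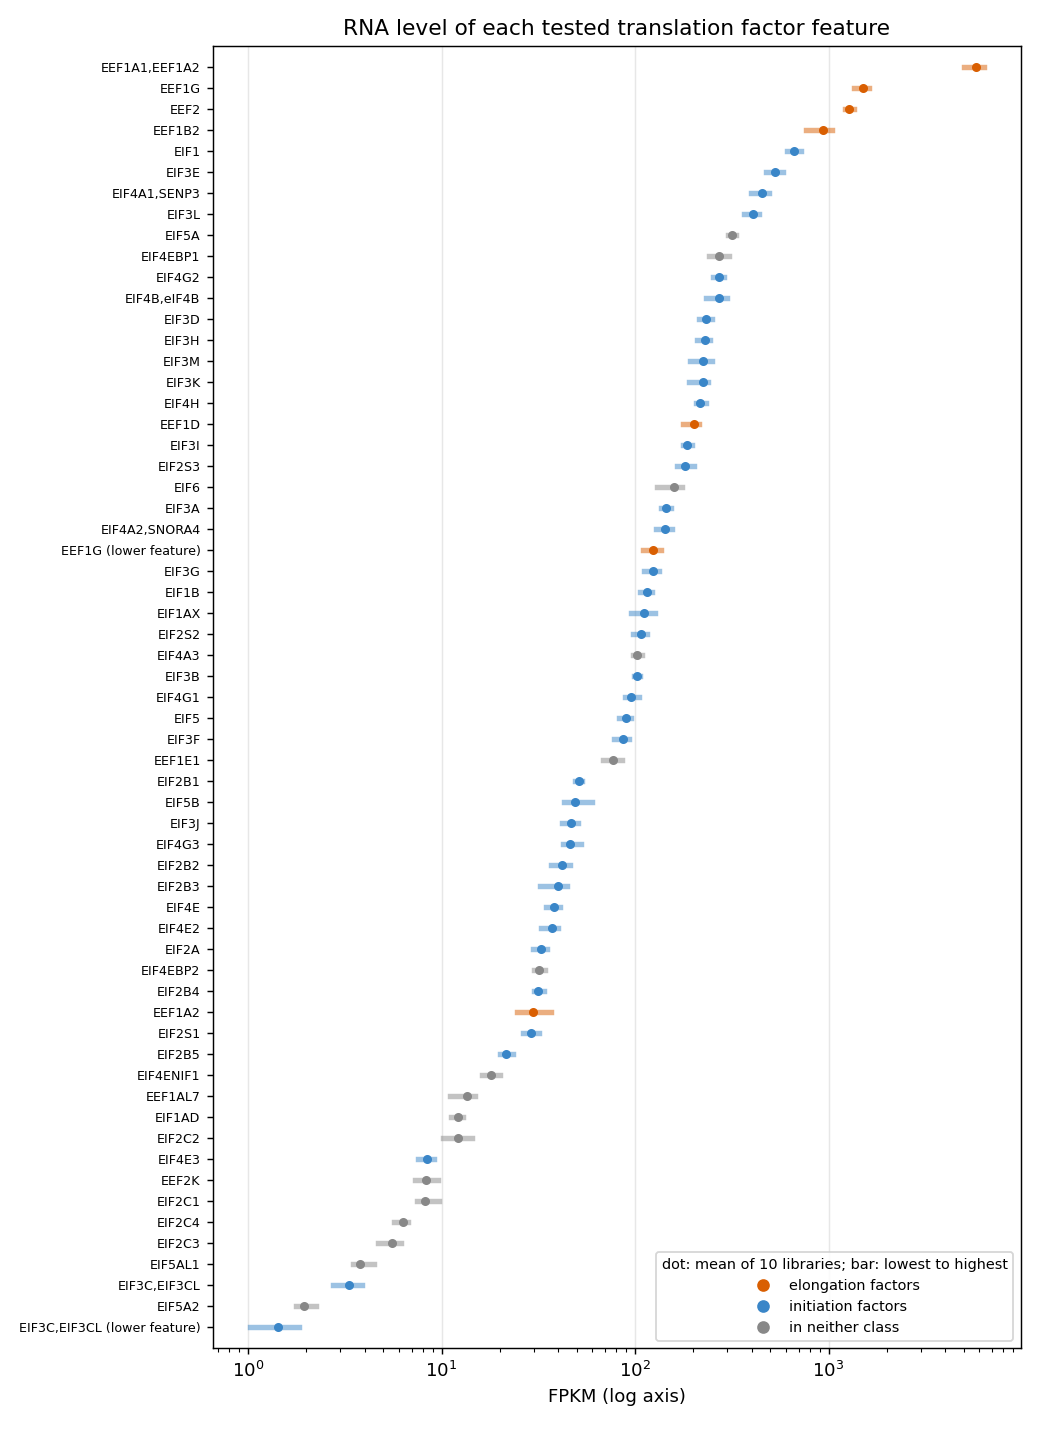
RNA level in FPKM (log axis) of the 61 tested features in order of their mean over 10 libraries (dots), with bars from the lowest to the highest library. Orange marks elongation, blue initiation and grey neither class; 4 orange dots, from EEF1B2 at 934 to EEF1A1,EEF1A2 at 5809 FPKM, lie above all blue ones.

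Depth was estimated from the steps between low values at 19000000 to 27800000 fragments per library. Summed FPKM ran from 522550 (P4P6 replicate 1) to 598370 (TOP1 replicate 0), while the upper quartile was held between 17.3 and 17.7. The targeted Gaussia reporter read 23.3 ± 0.759 FPKM (SD, n = 2) in CasVP, 822 ± 49.5 with sgRNA, 361 ± 7.33 with INT, 176 ± 18.5 with P4P6 and 265 ± 11.2 with TOP1, so every guide group stood above CasVP. Of 9 markers typical of HEK293 cells, 7 had a mean of at least 1 FPKM, with PAX2 at 0.926 and LHX1 at 0.504. None of the 7 markers of other cell types found in the table reached 1 FPKM, and COL1A2 was listed at 0 in every library.

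Against cells given the guide sgRNA, cells given P4P6 had, on the deposited scale, lower RNA of most elongation factors and of many initiation factors. In this comparison 25 of 61 members passed the test at an adjusted p under 0.05, 21 lower and 4 higher, against 11.5% of all tested features (7.17% lower and 4.33% higher). Of the 7 elongation features 5 fell, and of the 38 initiation features 13 fell and 1, EIF4G1, rose. The 16 features of neither class held 3 that fell (EIF6, EEF1E1 and the pseudogene EEF1AL7) and 3 that rose (EIF2C1, EIF2C2 and EEF2K). All passing differences were small, between -0.34 (EIF2B3) and 0.31 (EIF2C2) on the log2(FPKM + 1) scale. Both P4P6 libraries lay below both sgRNA libraries in 33 members, against 30.6% of features, and above them in 10, against 25.9%.

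These calls depended on some of the libraries more than on others. No member passed when any 1 of CasVP replicate 0, CasVP replicate 1, sgRNA replicate 0, sgRNA replicate 1 or P4P6 replicate 1 was left out, and none passed in a fit of the 4 P4P6 and sgRNA libraries alone. Calls over all features fell with them, from 1331 to between 1 and 3. With quantile normalization 3 of 61 members passed (EIF4G1 and EIF2C2 higher, EEF1AL7 lower), against 3.35% of all features, and under it EEF1G and EIF4G2 changed sign.

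The difference between P4P6 and sgRNA was lower at higher levels, both in the members and in all tested features. Among all tested features, the median difference was 0.05 at 1 to 10 FPKM, -0.03 at 10 to 100, -0.16 at 100 to 1000 and -0.28 at 1000 or more. The members' medians in the same bands were 0.01 (n = 9), -0.04 (n = 22), -0.17 (n = 27) and -0.19 (n = 3). At 1 to 10 FPKM 2 of 9 members rose, against 4.08% of features, and 0 fell, against 0.635%. At 10 to 100 FPKM 5 of 22 members fell, against 7.48% of features, and 2 rose, against 4.98%. At 100 to 1000 FPKM 14 of 27 members fell, against 37.5% of the 677 features there, and 87.9% of those features had a difference below 0. At 1000 FPKM or more 2 of 3 members fell, against 84.1% of 82 features. Across genes, which are not independent replicates, the rank correlation of difference and level was -0.42 over the 61 members and -0.37 over all 11574 features. With transcript length it was 0.42 over 60 members and 0.24 over 11423 features. Level and length share the same libraries and FPKM scaling, and their part in the calls was not tested.

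**Figure D2:**
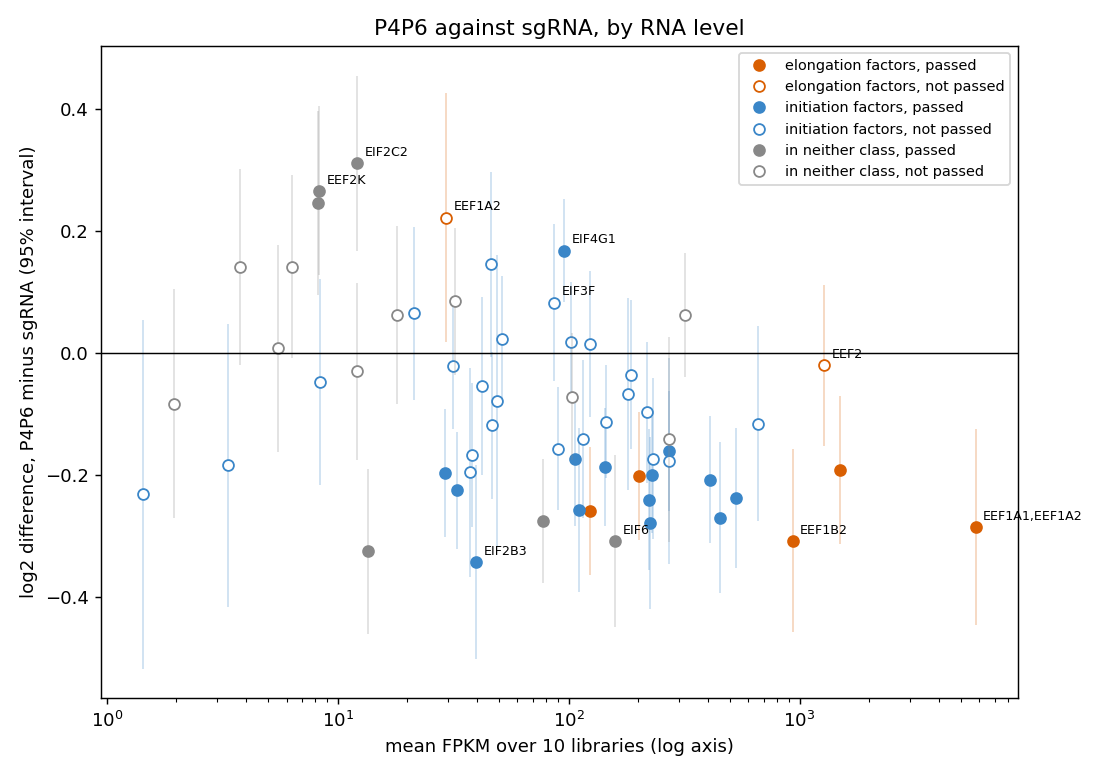
Log2 difference between P4P6 and sgRNA (2 libraries each, 95% interval as a line) against mean FPKM on a log axis, for the 61 tested features. Filled circles passed at an adjusted p under 0.05; passing features above 100 FPKM all lie below 0, EEF2 lies at -0.02, and the 4 that rose lie under 100 FPKM.

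eEF1A delivers aminoacyl-tRNA to the ribosome, and EEF1A1 is its ubiquitous isoform. The joint feature of EEF1A1 and EEF1A2 read 5737 and 5742 FPKM in CasVP, 6339.5 and 6105 with sgRNA, 6099.9 and 5319 with INT, 5183 and 5026 with P4P6, and 6346 and 6189 with TOP1. Both P4P6 libraries lay below the other 8. Relative to sgRNA the joint feature fell by 0.29 on the log2 scale (SE 0.07, adjusted p = 0.0362). EEF1A2, the isoform of muscle and neurons, also had a feature of its own, at 28.4 and 28.4 FPKM in CasVP, 26.9 and 30.2 with sgRNA, 30.7 and 31.5 with INT, 30.2 and 36.9 with P4P6, and 24.6 and 27.7 with TOP1. Its highest library was P4P6 replicate 1 and both TOP1 libraries lay below both CasVP libraries, but the P4P6 minus sgRNA difference of 0.22 (SE 0.09, adjusted p = 0.134) did not pass. The joint feature exceeded EEF1A2 by a ratio of 136 (P4P6 replicate 1) to 258 (TOP1 replicate 0).

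The eEF1B complex exchanges GDP for GTP on eEF1A: EEF1B2 and EEF1D hold the exchange activity and EEF1G is a structural subunit. EEF1B2 had 861 and 763 FPKM with P4P6, against 1046 and 963 with sgRNA, 961 and 927 in CasVP, 929.9 and 875 with INT, and 1018 and 999 with TOP1. P4P6 was again the lowest group without overlap, and EEF1B2 differed from sgRNA by -0.31 (SE 0.07, adjusted p = 0.026), the largest drop among the elongation factors. EEF1D read 215 and 204 FPKM in CasVP, 208 and 213 with sgRNA, 198 and 196 with INT, 189 and 178 with P4P6, and 204 and 211 with TOP1. Its P4P6 libraries were the lowest of all, with INT next, and the difference from sgRNA was -0.20 (SE 0.05, adjusted p = 0.0307). EEF1G occurred as 2 features of the same name, the main one at 1536 and 1539 FPKM in CasVP, 1581 and 1535 with sgRNA, 1519 and 1398 with INT, 1374 and 1353 with P4P6, and 1566 and 1621 with TOP1. For this feature P4P6 lay below every other library and fell relative to sgRNA (-0.19, adjusted p = 0.0486), a direction that turned to 0.10 under quantile normalization. The lower EEF1G feature read 121 and 118 FPKM in CasVP, 137 and 133 with sgRNA, 129 and 122 with INT, 115 and 110.5 with P4P6, and 126 and 131 with TOP1. It too fell with P4P6 relative to sgRNA (-0.26, adjusted p = 0.0231); how reads were divided between the features of the same name is not given in the sources used here.

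EEF2, the translocase, did not pass in any comparison. It stood at 1285 and 1230.0 FPKM in CasVP, 1297 and 1295 with sgRNA, 1350.2 and 1264 with INT, 1331 and 1226 with P4P6, and 1281 and 1221 with TOP1. P4P6 overlapped with every other group, both sgRNA libraries lay above those of CasVP and TOP1, and the difference between P4P6 and sgRNA was -0.02 (SE 0.06, adjusted p = 0.845), with a 95% interval from -0.15 to 0.11. EEF2K, the kinase that inhibits eEF2, had low RNA, with 9.38 and 9.54 FPKM with P4P6, against 8.11 and 7.32 with sgRNA, 8.09 and 8.23 in CasVP, 8.66 and 8.39 with INT, and 7.79 and 7.79 with TOP1. Both P4P6 libraries lay above the other 8, and EEF2K rose relative to sgRNA (0.27, adjusted p = 0.0307). The ratio of EEF2 to EEF2K was 135 ± 9.39 (SD, n = 2) with P4P6 and 168 ± 12.0 with sgRNA; it was not tested.

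EEF1E1, a scaffold of the multi-tRNA-synthetase complex, had 68.9 and 68.5 FPKM with P4P6, against 85.2 and 81.7 with sgRNA, 77.4 and 82.2 in CasVP, 71.4 and 73.6 with INT, and 81.5 and 81.3 with TOP1. P4P6 was lowest and INT next, with no overlap with the other groups, and EEF1E1 fell relative to sgRNA (-0.28, adjusted p = 0.0231). The pseudogene feature EEF1AL7 read 14.01 and 13.2 FPKM in CasVP, 14.8 and 14.7 with sgRNA, 13.4 and 12.96 with INT, 11.1 and 12.1 with P4P6, and 14.8 and 14.04 with TOP1. It fell with P4P6 relative to sgRNA (-0.33, adjusted p = 0.024), and its level is uncertain because it is a near copy of EEF1A1.

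**Figure D3:**
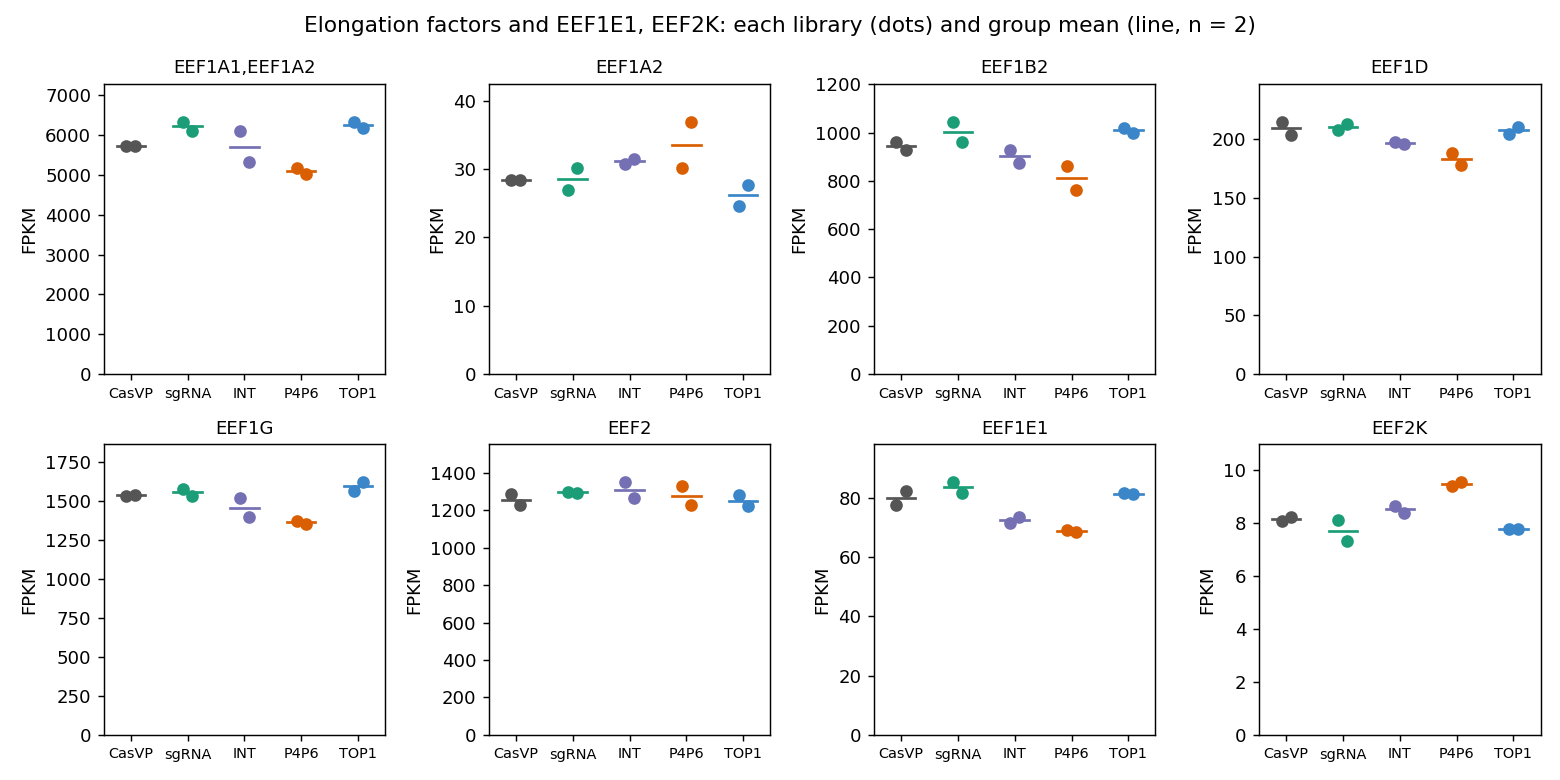
FPKM of 6 elongation features, EEF1E1 and EEF2K in each library (dots) with the group mean (line, n = 2), on axes that start at 0. P4P6 is the lowest group in EEF1A1,EEF1A2, EEF1B2, EEF1D, EEF1G and EEF1E1, has the highest mean in EEF1A2 and EEF2K, and overlaps the other groups in EEF2.

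Among factors for start-codon choice, EIF1, the gatekeeper of start-codon recognition, was the most abundant initiation factor, with 659 and 626 FPKM in CasVP, 719 and 670.5 with sgRNA, 672 and 639.8 with INT, 676 and 607 with P4P6, and 719.7 and 643 with TOP1. Both sgRNA libraries lay above both CasVP libraries for EIF1, the other pairs of groups overlapped, and no comparison passed. EIF1AX, the X-linked gene for eIF1A, read 105 and 104 FPKM in CasVP, 122 and 115 with sgRNA, 110.4 and 112 with INT, 104 and 94.9 with P4P6, and 127 and 115 with TOP1. Its 4 sgRNA and TOP1 libraries were the highest, and EIF1AX fell with P4P6 relative to sgRNA (-0.26, adjusted p = 0.0307). EIF1B had a mean of 115 FPKM, EIF5, the GTPase activator of eIF2, 89.6, and EIF5B, the subunit-joining GTPase, 49.1; none of them passed, with EIF5 nearest at -0.16 (adjusted p = 0.0505) for P4P6 against sgRNA. EIF1AD, related to eIF1A by name, read 12.6 and 12.5 FPKM in CasVP, 12.9 and 11.9 with sgRNA, 12.3 and 11.2 with INT, 12.6 and 11.6 with P4P6, and 11.9 and 12.2 with TOP1. For EIF1AD both INT and both TOP1 libraries lay below both CasVP libraries, and the other pairs of groups overlapped.

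eIF2, the carrier of initiator tRNA, has its subunits encoded by EIF2S1, EIF2S2 and EIF2S3. EIF2S3 was the most abundant at 169 and 164 FPKM in CasVP, 191 and 177 with sgRNA, 202 and 173 with INT, 179.8 and 171 with P4P6, and 194 and 184 with TOP1. CasVP was the lowest group for EIF2S3 and P4P6 did not pass against sgRNA (-0.07, adjusted p = 0.556). EIF2S2 read 99.7 and 104 FPKM in CasVP, 115 and 111 with sgRNA, 110.1 and 105 with INT, 97.5 and 102 with P4P6, and 115 and 109.6 with TOP1. EIF2S1, the subunit phosphorylated under stress, was the least abundant, at 29.1 and 28.8 FPKM in CasVP, 30.7 and 30.03 with sgRNA, 28.7 and 27.6 with INT, 26.4 and 26.3 with P4P6, and 32.1 and 30.5 with TOP1. For EIF2S1, P4P6 lay below every other library and TOP1 replicate 0 was the highest. Relative to sgRNA, P4P6 was lower by a passing margin for EIF2S2 (-0.17, adjusted p = 0.0487) and EIF2S1 (-0.20, adjusted p = 0.0321). EIF2A, a separate factor that can deliver initiator tRNA, had 29.6 and 29.7 FPKM with P4P6, against 34.9 and 34.7 with sgRNA, 30.98 and 31.9 in CasVP, 33.5 and 33.7 with INT, and 33.7 and 34.6 with TOP1, and it fell as well (-0.23, adjusted p = 0.0246). The RNA of EIF2S2 exceeded that of EIF2S1 by a ratio of 3.43 to 3.89 and that of EIF2S3 exceeded EIF2S2 by 1.58 to 1.84 over the 10 libraries.

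eIF2B reloads eIF2 with GTP, and its 5 subunit genes lay within a narrow band of 21.4 to 51.4 FPKM. EIF2B1 read 51.6 and 50.2 FPKM in CasVP, 51.9 and 50.4 with sgRNA, 51.97 and 48.9 with INT, 52.05 and 51.9 with P4P6, and 53.2 and 51.4 with TOP1. Both P4P6 libraries lay above both CasVP libraries for EIF2B1, the other pairs of groups overlapped, and no comparison passed. EIF2B3 had 35.8 and 32.4 FPKM with P4P6, against 44.7 and 42.2 with sgRNA, 40.8 and 38.4 in CasVP, 40.9 and 35.8 with INT, and 44.4 and 42.8 with TOP1. P4P6 was lowest, and EIF2B3 had the largest fall of any member relative to sgRNA (-0.34, SE 0.07, adjusted p = 0.0251). EIF2B5, the catalytic subunit, read 22.8 and 23.4 FPKM in CasVP, 19.97 and 21.4 with sgRNA, 20.5 and 21.5 with INT, 20.6 and 22.8 with P4P6, and 20.02 and 21.3 with TOP1. Its CasVP libraries were the highest of all, but no comparison passed, and neither did EIF2B2 or EIF2B4.

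eIF3, the largest initiation complex, was represented by 14 features, of which 5 fell with P4P6 relative to sgRNA and none rose. Over all tested features 7.17% fell and 4.33% rose. All 5 had means of 100 to 1000 FPKM, a band in which 37.5% of all tested features fell and 0.295% rose. The median of the 14 was -0.18 in the deposited scale and -0.02 after quantile normalization. EIF3E, the most abundant, read 514 and 525 FPKM in CasVP, 569 and 558 with sgRNA, 548 and 500.5 with INT, 475 and 480.0 with P4P6, and 585 and 566 with TOP1. Its P4P6 libraries were the lowest, and the difference from sgRNA was -0.24 (SE 0.05, adjusted p = 0.0258). EIF3L had 367 and 378 FPKM with P4P6, against 432 and 429 with sgRNA, 409 and 409 in CasVP, 411 and 384 with INT, and 425 and 438 with TOP1, and it differed from sgRNA by -0.21 (adjusted p = 0.0282). EIF3H had 209 and 209 FPKM with P4P6, against 240.2 and 241 with sgRNA and 224 and 227 in CasVP. With INT it had 237 and 222 FPKM, and with TOP1 243 and 243. Between P4P6 and sgRNA it differed by -0.20 (adjusted p = 0.0252). In both EIF3L and EIF3H the P4P6 libraries were below all others. EIF3M read 224 and 211 FPKM in CasVP, 246 and 235 with sgRNA, 233 and 210.1 with INT, 204 and 192 with P4P6, and 251 and 236 with TOP1. EIF3K read 229.6 and 227 FPKM in CasVP, 235 and 238 with sgRNA, 217 and 214 with INT, 211 and 189.5 with P4P6, and 237 and 237 with TOP1. P4P6 was the lowest group in EIF3M and EIF3K, without overlap, and both fell relative to sgRNA (-0.28, adjusted p = 0.0287 for EIF3M and -0.24, adjusted p = 0.0258 for EIF3K).

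The other 9 eIF3 features did not pass between P4P6 and sgRNA. EIF3F read 78.3 and 78.2 FPKM in CasVP, 90.4 and 85.6 with sgRNA, 92.5 and 84.6 with INT, 93.2 and 93.2 with P4P6, and 88.7 and 81.3 with TOP1. Both CasVP libraries were the lowest and both P4P6 libraries the highest, with a P4P6 minus CasVP difference of 0.25 (SE 0.06, adjusted p = 0.0775) that did not pass. EIF3G, an RNA-binding subunit with a mean of 124 FPKM, likewise had both CasVP libraries below every guide library (0.19, adjusted p = 0.0987 for P4P6 minus CasVP). EIF3B, the scaffold subunit, differed between P4P6 and sgRNA by 0.02, EIF3I by -0.04 and EIF3A by -0.11, none of which passed. EIF3D (-0.17, adjusted p = 0.0813) and EIF3J (-0.12, adjusted p = 0.172) did not pass either. The core subunit EIF3C appears only as 2 joint features with the near-identical EIF3CL, at means of 3.33 and 1.43 FPKM. The lower of the pair read 1.58 and 1.25 FPKM in CasVP, 1.42 and 1.83 with sgRNA, 1.48 and 1.505 with INT, 1.45 and 1.02 with P4P6, and 1.57 and 1.22 with TOP1. Both INT libraries of this feature lay above both P4P6 libraries, the other pairs of groups overlapped, and the level of EIF3C itself is uncertain.

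eIF4F binds the cap: EIF4E holds it, EIF4G is the scaffold and EIF4A the helicase. The joint feature of EIF4A1 and SENP3 read 444 and 433 FPKM in CasVP, 491 and 477 with sgRNA, 474 and 422 with INT, 399 and 404 with P4P6, and 484 and 487 with TOP1. EIF4A2, joint with a small nucleolar RNA, read 140.4 and 145 FPKM in CasVP, 151 and 145 with sgRNA, 146 and 140.0 with INT, 131 and 128 with P4P6, and 156 and 153 with TOP1. In both helicase features P4P6 was the lowest group, and both fell relative to sgRNA (-0.27, adjusted p = 0.025 for EIF4A1 and -0.19, adjusted p = 0.0307 for EIF4A2). The ratio of the EIF4A1 feature to the EIF4A2 feature stayed between 2.99 and 3.29. The cap-binding gene EIF4E had a mean of 38.1 FPKM and did not pass (-0.17, adjusted p = 0.067 for P4P6 against sgRNA), nor did its relative EIF4E2 (-0.20, adjusted p = 0.119). EIF4E3, the least abundant of these cap-binding genes, read 7.896 and 7.57 FPKM in CasVP, 8.696 and 8.47 with sgRNA, 8.899 and 8.0002 with INT, 8.85 and 7.73 with P4P6, and 9.19 and 8.74 with TOP1. CasVP was the lowest on average for EIF4E3, and no comparison passed. EIF4B and EIF4H, helpers of the helicase at 271 and 218 FPKM, did not pass either.

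On the deposited scale the scaffold genes EIF4G1 and EIF4G2 moved in opposite directions, though not under quantile normalization. EIF4G1, the main scaffold, read 95.01 and 94.7 FPKM in CasVP, 93.7 and 92.9 with sgRNA, 97.2 and 96.9 with INT, 105 and 105 with P4P6, and 89.7 and 88.5 with TOP1. EIF4G2, a scaffold that lacks the cap-binding partner site, read 275 and 268 FPKM in CasVP, 288 and 275 with sgRNA, 272 and 260.0 with INT, 252 and 252 with P4P6, and 286 and 286 with TOP1. Within each gene P4P6 lay outside the other 8 libraries, above them for EIF4G1 and below them for EIF4G2. EIF4G1 rose relative to sgRNA (0.17, SE 0.04, adjusted p = 0.0286) and EIF4G2 fell (-0.16, SE 0.04, adjusted p = 0.0449). EIF4G2 turned to 0.01 under quantile normalization, whereas EIF4G1 stayed higher at 0.27. A ratio within a library cancels a single scale factor, but not a difference that varies with level or transcript length. EIF4G2 had a mean of 271 FPKM and a median transcript length of 1069 bases, and EIF4G1 95.8 FPKM and 3609 bases. The ratio of EIF4G2 to EIF4G1 was 2.40 ± 0.0019 (SD, n = 2) with P4P6, 2.74 ± 0.0815 with INT and 2.87 ± 0.0461 in CasVP. It was 3.02 ± 0.0805 with sgRNA and 3.21 ± 0.0311 with TOP1, and it was not tested. EIF4G3, a further scaffold, differed by 0.15 between P4P6 and sgRNA and did not pass.

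The regulators of eIF4E did not pass in any comparison. EIF4EBP1, the mTOR-regulated repressor of eIF4E, read 278 and 263 FPKM in CasVP, 290.0 and 283 with sgRNA, 255 and 260.1 with INT, 281 and 240.4 with P4P6, and 306 and 273 with TOP1. Both sgRNA libraries lay above those of CasVP, INT and P4P6, and both INT libraries lay below those of CasVP and TOP1. The RNA of EIF4EBP1 exceeded that of EIF4E by a ratio of 6.42 to 8.08 in the 10 libraries. EIF4ENIF1, the eIF4E transporter, read 16.1 and 17.5 FPKM in CasVP, 17.1 and 18.5 with sgRNA, 18.8 and 20.1 with INT, 19.1 and 18.2 with P4P6, and 17.3 and 18.4 with TOP1. Both INT libraries lay above both CasVP libraries for EIF4ENIF1 (0.20, adjusted p = 0.507 for INT minus CasVP). EIF4EBP2 had a mean of 32.0 FPKM. EIF4A3, the helicase of the exon junction complex, read 101 and 103 FPKM in CasVP, 104 and 108 with sgRNA, 102 and 103 with INT, 97.5 and 105 with P4P6, and 101 and 103 with TOP1. Both sgRNA libraries of EIF4A3 lay above those of CasVP, INT and TOP1, while P4P6 overlapped with every group.

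eIF5A carries the modified residue hypusine and relieves stalled ribosomes. EIF5A read 317 and 323 FPKM in CasVP, 309 and 322 with sgRNA, 325 and 313 with INT, 325 and 334 with P4P6, and 303 and 317 with TOP1. Both P4P6 libraries lay above the other 8, by a small margin, and the difference between P4P6 and sgRNA did not pass at 0.06 (SE 0.05, adjusted p = 0.394), with a 95% interval from -0.04 to 0.16. Its paralog EIF5A2 read 1.76 and 1.78 FPKM in CasVP, 2.25 and 1.897 with sgRNA, 2.02 and 1.95 with INT, 1.89 and 1.91 with P4P6, and 1.95 and 2.103 with TOP1, and the ratio of EIF5A to EIF5A2 was 137 to 181. EIF5AL1, a near-identical copy of EIF5A listed at a mean of 3.79 FPKM, is uncertain for that reason.

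EIF6 keeps the large ribosomal subunit from joining too early. It read 174 and 164 FPKM in CasVP, 173 and 172 with sgRNA, 147 and 149 with INT, 149.6 and 129 with P4P6, and 168 and 167 with TOP1. The P4P6 and INT libraries were the lowest 4, without overlap with the other 3 groups. EIF6 fell with P4P6 relative to sgRNA (-0.31, SE 0.06, adjusted p = 0.025), and the difference from CasVP, -0.28 (SE 0.06, adjusted p = 0.0775), did not pass. With INT, EIF6 differed from CasVP by -0.19 (adjusted p = 0.507) and did not pass.

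The Argonaute genes, which load small RNAs and are not translation factors, were of low abundance. EIF2C2 (AGO2) had 14.4 and 14.1 FPKM with P4P6, against 11.7 and 10.9 with sgRNA, 12.1 and 12.3 in CasVP, 12.7 and 11.7 with INT, and 11.1 and 10.2 with TOP1. EIF2C1 (AGO1) had 8.79 and 9.68 FPKM with P4P6, against 7.47 and 7.77 with sgRNA, 7.88 and 7.81 in CasVP, 8.64 and 8.14 with INT, and 7.48 and 8.06 with TOP1. P4P6 was the highest group in both, and both rose relative to sgRNA (0.31, adjusted p = 0.0251 for EIF2C2 and 0.25, adjusted p = 0.0447 for EIF2C1). EIF2C3 (AGO3) read 5.801 and 6.18 FPKM in CasVP, 5.62 and 5.43 with sgRNA, 5.43 and 5.69 with INT, 5.29 and 5.84 with P4P6, and 5.29 and 4.697 with TOP1 and did not pass, nor did EIF2C4 (0.14, adjusted p = 0.188).

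Relative to CasVP, no member passed with any single guide in the main fit. With the library index as a block, 7 members passed with P4P6, against 5.18% of all features. P4P6 gave 0 of 61 passing members (0.00864% of all features passed), although 26 had an unadjusted p under 0.05 (22.2% of all features did). Of these 18 were lower, against 12.9% of features, and 8 higher, against 9.32%. The smallest adjusted p-values were 0.075 for EEF1E1 (-0.21), 0.0775 for EIF6 and 0.0775 for EIF3F. Both P4P6 libraries lay below both CasVP libraries in 28 members, against 28.1% of features, and above them in 15, against 23.4%. Without P4P6 replicate 0, 6 members passed against CasVP, 5 lower and 1 higher, while calls over all features went from 1 to 765.

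With sgRNA, 0 of 61 members passed against CasVP (0.0173% of features did) and 12 had an unadjusted p under 0.05, against 6.02% of features. Of these 10 were higher (3.23% of features) and 2 lower (2.79%). Both sgRNA libraries exceeded both CasVP libraries in 32 members, against 24.0% of features, and lay below them in 7, against 22.0%. EIF1AX (0.18, adjusted p = 0.791), EIF3G (0.18) and EIF3F (0.17) were among those 10 higher members, and EIF2B5 (-0.15) and EIF2B4 (-0.11) were the 2 lower. TOP1 gave 0 passing members (0.00864% of features) and 18 with an unadjusted p under 0.05 (9.22% of features). Of the 18, 14 were higher (4.29% of features), all initiation factors, and 4 lower (4.92%). Both TOP1 libraries lay above both CasVP libraries in 31 members (24.7% of features) and below them in 11 (23.5%). EIF1AX differed by 0.20, EIF4E3 by 0.19, EIF2S3 by 0.18 and EIF5 by 0.18, and the 4 lower were EIF2C3 (-0.22), EIF2C2, EIF2B5 and EIF4G1. Both comparisons use the same CasVP libraries. Between TOP1 and sgRNA directly, 0 members passed (0.00864% of features) and 0 had an unadjusted p under 0.05, against 1.68% of features.

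INT gave 0 passing members against CasVP (0.0173% of features) and 7 with an unadjusted p under 0.05, against 8.86%. EIF2S3, EIF3G, EIF3F and EIF4ENIF1 were higher (3.81% of features) and EIF6, EEF1E1 and EIF2B2 lower (5.05%). Against sgRNA, INT gave 0 passing members (0.00864% of features) and 10 with an unadjusted p under 0.05, all lower, against 8.77% of features in either direction and 5.66% lower. The lowest was EIF6 at -0.22 (adjusted p = 0.555), and EEF1E1 (-0.20), EIF2B3 (-0.18) and EEF1B2 (-0.15) were among them. The INT libraries differed from each other: EEF1A1,EEF1A2 was at 6099.9 FPKM in replicate 0 and 5319 in replicate 1. Over all guide libraries against CasVP, 0 members passed (0.0173% of features) and 7 had an unadjusted p under 0.05 (7.43%). In a test of any difference among the 5 groups 0 members passed (0.0259% of features) and 32 had an unadjusted p under 0.05, against 24.0%. With the library index as a block 25 members passed this test, against 11.1% of features.

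The class medians of elongation and initiation factors had the same sign with sgRNA, P4P6 and TOP1 and lay near 0 with INT. Relative to CasVP, the median log2 difference of elongation and of initiation factors was 0.04 and 0.08 with sgRNA, -0.01 and 0.03 with INT, -0.17 and -0.08 with P4P6, and 0.05 and 0.09 with TOP1, while that of all tested features lay between -0.01 and 0.00. The class means varied between libraries of 1 group by an SD of 0.03 (elongation) and 0.02 (initiation). Under quantile normalization the P4P6 medians became -0.01 and -0.02 and the elongation median with TOP1 became -0.04. Without features of several genes or a shared name, the elongation and initiation medians were -0.08 and -0.07 with P4P6. With TOP1 they were then -0.01 and 0.08. Relative to sgRNA, P4P6 medians were -0.20 and -0.16, and -0.02 and -0.02 under quantile normalization. No test was made of a class, since its members are not replicates of a condition. The classes had higher levels, with medians of 934 and 104.5 FPKM, than all tested features, with 14.4. At 100 to 1000 FPKM, P4P6 relative to CasVP had a median of -0.11 over all tested features and -0.07 over 27 members. At 1000 FPKM or more these medians were -0.20 over all tested features and -0.17 over 3 members. The 78 ribosomal protein features deviated further in the same libraries, by a mean of -0.12 and -0.23 in P4P6 replicates 0 and 1 against -0.07 and -0.10 for elongation factors and -0.07 and -0.08 for initiation factors. INT replicates 0 and 1 lay on opposite sides of 0 in all 3 sets.

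**Figure D4:**
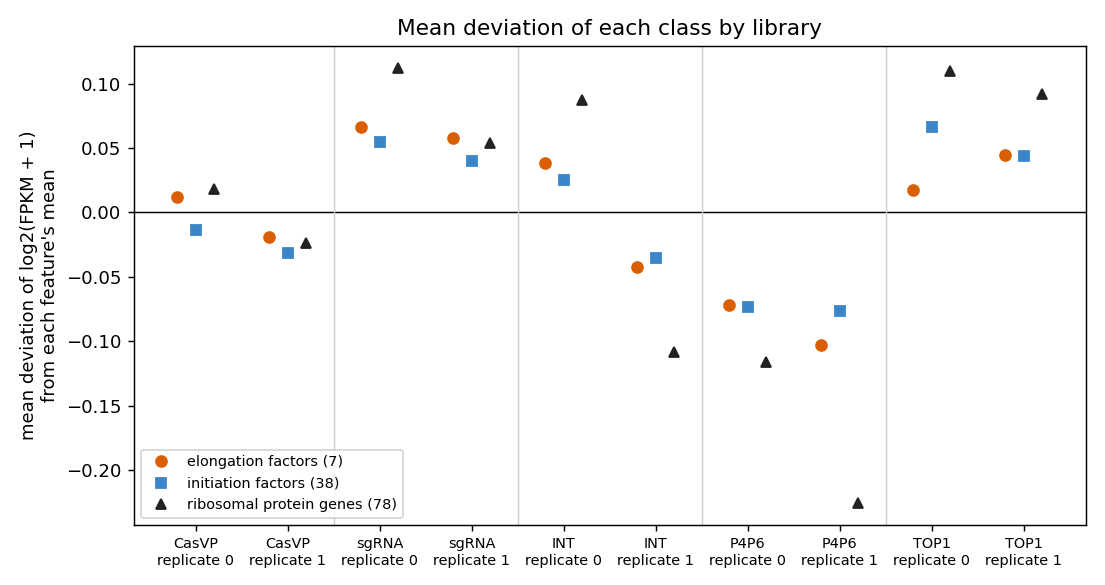
Mean deviation of log2(FPKM + 1) from each feature's mean over 10 libraries, for 7 elongation, 38 initiation and 78 ribosomal protein features (the y axis) in each library (the x axis). Both P4P6 libraries lie below 0 in every set, both sgRNA and both TOP1 libraries above 0, and the INT pair on either side.

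Summed over members, elongation factors made up 1.73% ± 0.00212 (SD, n = 2) of all FPKM in CasVP, 1.77% ± 0.0248 with sgRNA, 1.74% ± 0.0898 with INT, 1.67% ± 0.0127 with P4P6 and 1.77% ± 0.00354 with TOP1. Initiation factors made up 0.978% ± 0.00537 in CasVP and 1.00% to 1.01% with the guides. Their share was nearly the same with P4P6 (1.003% ± 0.0154) as with sgRNA (1.002% ± 0.00919). The FPKM sum over all features was itself lower with P4P6 (540090 and 522550) than with sgRNA (596430 and 587610). The ratio of the elongation sum to the initiation sum was 1.77 ± 0.00707 in CasVP, 1.76 ± 0.00849 with sgRNA and with TOP1, 1.72 ± 0.0516 with INT and 1.67 ± 0.0382 with P4P6. The P4P6 libraries, at 1.64 and 1.70, overlapped with the INT range of 1.68 to 1.75; the ratio was not tested. The joint EEF1A1 feature holds most of the elongation sum.

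Members with the pyrimidine start had a median P4P6 minus sgRNA difference of -0.19, with 6 of 11 passing lower, against -0.08 and 9 of 39 for members without it. Both features named EEF1G, which share a window, are among those 9. Over all tested features with a window, 16.8% of 744 with the start passed lower, against 6.64% of 8779 without it. Members with the start were more abundant: 9 of the 11 had at least 100 FPKM, against 13 of the 39. At this level their median was -0.19 (5 of 9 passing lower), against -0.14 for 13 members without it (6 passing lower). Over all tested features of at least 100 FPKM, the median was -0.22 for 135 features with the start (60.0% passing lower) and -0.17 for 503 without it (37.2%). Of the 11 members with the start, 10 had a difference below 0, as did 26 of the 39 without it. EIF3E, EIF3H, EIF3L, EEF1D, EIF2S2 and EEF1AL7 fell but had no window and are in neither count. EEF2 and EIF3F have the start and did not pass, while EEF1G, EIF1AX and EIF2B3 lack it at the annotated start and fell. The difference between members with and without it was not tested.

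A list of 52 other genes of translation and its control, covering termination, poly(A)-binding proteins, eIF2 kinases, mTOR signalling, hypusine and diphthamide synthesis and organelle factors, gave 50 tested features. None passed against CasVP with any guide. Between P4P6 and sgRNA 3 of the 50 rose, against 4.33% of all tested features, and 5 fell, against 7.17%. Their median was -0.01, beside -0.01 for all tested features. Calls over all features in this comparison depended on the libraries in the fit, as described above. LARP1, the protein that binds pyrimidine-start mRNAs, rose by 0.20 (adjusted p = 0.0251), as did TSC2, an inhibitor of mTOR signalling (0.26, adjusted p = 0.0231), and GCN1L1, a partner of the eIF2 kinase GCN2 (0.20, adjusted p = 0.0346). The features that fell were MTIF2, a mitochondrial initiation factor (-0.28), the scanning helicase DHX29 (-0.23), the ribosome rescue factor HBS1L (-0.20), the recycling factor ABCE1 (-0.17) and PAIP2, an inhibitor of poly(A)-binding protein (-0.17). ABCF1, a factor that binds eIF2, had a mean of 42.6 FPKM and did not pass (0.19, adjusted p = 0.0527); 6 further features of its name were listed at 0. PELO was not found by name.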

How the data were processed

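Polyadenylated RNA of 10 HEK293FT libraries was analysed in 5 groups taken from the labels. The deposited values are FPKM, with a column for each library. TopHat2 2.0.13, Cuffdiff 2.2.1 and the build hg19 are named in the submitters' processing notes; which annotation was used, how reads that match several genes were handled and how libraries were scaled is not given in the sources used here. Columns carry a group and an index of 0 or 1, which could not be tied to a numbered replicate of the labels, so libraries are named by group and index. Read counts were not used here, and FPKM gives no counting error. The 945 unnamed features (2.31 to 2.47% of summed FPKM) were left out.

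Values were taken as log2(FPKM + 1), which understates changes of low features. A minimum of 1 for the mean FPKM left 11574 features, which limma 3.58.1 (R 4.3.3) fitted in a model of all 10 libraries, leaving 5 residual degrees of freedom, with an intensity trend for the variance prior. Benjamini-Hochberg adjustment of the two-sided p-values ran over these features for each comparison, and 0.05 was the threshold; there were 9 comparisons, the last a test over all groups. The procedure was checked on simulated data with independent noise, where only large true differences were required to be called. This requirement does not bear on differences as small as those reported here, or on shifts shared by many features. Alternatives covered the pseudocount, the minimum FPKM, scaling, the variance prior, library weights, the libraries in the fit, leaving out each library, class definitions and the index as a block.

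Values given library by library are those of the elongation factors, EEF1E1 and EEF2K, the most and least abundant tested member of each other role, members that passed a test, and the 8 with the largest single-guide difference from CasVP. The members and lists were chosen with earlier results of these data known. The start pattern, the printed sequences, the level and length relations, the ratio pairs, the roles of EEF1AL7 and EIF3IP1, and the alternative without features of several genes or of a shared name were chosen after values were seen. Symbols were matched to RefSeq windows (GRCh38.p14), and 12 members had none.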

Additional observations from a re-analysis of the deposited data

How the results depend on the processing

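With 2 libraries a group and FPKM only, counting error is unknown, and the differences seen here are small beside what such a design can resolve. The 25 members passing between P4P6 and sgRNA (11.5% of all features) became 16 of 63 with no minimum FPKM (3.78% of features), 3 with quantile normalization (3.35%), 13 without the intensity trend (5.77%), 11 with library weights (3.32%) and 0 with only the libraries of the groups compared (2 features); leaving out 1 library gave 0 to 26 (0.00863% to 17.7% of features). P4P6 against CasVP gave 0 to 6 when 1 library was left out (0.00863% to 6.61%). The test over all groups gave 1 under quantile normalization (0.216% of features) and 0 to 6 with 1 library left out (0.00863% to 4.55%). Under quantile normalization the log2 medians relative to CasVP became 0 (elongation) and 0.0249 (initiation) with sgRNA, -0.0142 and -0.0154 with P4P6, and -0.0412 (from above 0) and 0.0286 with TOP1, and between P4P6 and sgRNA EEF1G became 0.0983 and EIF4G2 0.014.

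Leaving out 1 library moved the elongation median over 0.0204 to 0.0752 for sgRNA, -0.0954 to 0.0879 for INT and -0.1836 to -0.1327 for P4P6, and the initiation median for INT over -0.017 to 0.0571. Without INT replicate 0 the INT medians were -0.0954 and -0.017, and without INT replicate 1 they were 0.0879 and 0.0571. Without features of several genes or a shared name the elongation median was -0.0849 for P4P6 and -0.0103 for TOP1. The initiation medians were then -0.0724 and 0.0811. With classes by symbol the initiation median was -0.0549 for P4P6. Same-index libraries deviated together with r from -0.036 to 0.415 over 10 pairs of groups, 8 of them above 0.1. The labels do not say that libraries of the same index were handled together, so the main fit has no term for the index. With the index as a block, 30 members passed for P4P6 against sgRNA (20.1% of features). For P4P6 against CasVP 7 passed (5.18%, from 0.00864%), and in the test over all groups 25 did (11.1%, from 0.0259%). The cause of these shifts was not tested. For single members, 971 of the values kept their direction and side of the threshold, 200 no longer passed, 13 newly passed and 2 changed direction.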
